A study of Sorghum bicolor with 18 samples.

Results

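The change in the response of sorghum axillary buds to leaf removal between 1 h and 3 h after the operation was measured here gene by gene, as the effect of leaf removal at 3 h minus its effect at 1 h. The comparison uses 12 of the 18 RNA-seq libraries, all those collected at 1 h and 3 h, and its members are therefore samples and not genes chosen by their values. The plants were Sorghum bicolor of cultivar 100M, 7 days after sowing at the start of treatment, grown in 16 h of light at 32 °C and 8 h of dark at 22 °C. Leaf removal consisted of peeling off the coleoptile and the first leaf, which left the first axillary bud exposed, and intact plants kept both. The 4 groups were leaf-removed buds at 3 h, intact buds at 3 h, leaf-removed buds at 1 h and intact buds at 1 h, each with 3 libraries. Each library was made from a pool of 15 first-axil buds, and of 4 pools harvested the 3 with the best RNA were sequenced. Nothing in the labels ties a pool of 1 group to a pool of another, and the p-values below measure the spread between pools.

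An axillary bud is a small shoot meristem in the angle between leaf and stem that either stays dormant or grows out into a branch. Dormant buds of many plants carry high levels of dormancy-associated transcripts and of abscisic acid responses, while cytokinin, sugar supply and re-entry into the cell cycle go with outgrowth. Peeling a leaf is also a wound and exposes the bud to light and dry air, so that wound, light and water responses may come with it and cannot be told apart from loss of the leaf in this design.

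The 12 libraries held 24.4 to 33.8 M exon reads each, and 22543 to 25413 genes had reads. The share of gene reads in introns averaged 4.02% in leaf-removed and 4.64% in intact buds at 3 h, and 3.86% in leaf-removed and 5.33% in intact buds at 1 h. Transcripts of the meristem and bud identity list, 28 genes that include KNOTTED-like and BELL-type homeobox factors, summed to 475 to 594 and 487 to 544 CPM (reads relative to the scaled library size) in leaf-removed and intact buds at 3 h, and to 350 to 467 and 370 to 542 CPM at 1 h. The 31 light harvesting and RuBisCO genes, which mark green leaf cells, summed to 3717 to 6554 and 5791 to 9479 CPM in leaf-removed and intact buds at 3 h, and to 3336 to 5296 and 2174 to 5296 CPM at 1 h. Neither list was at 0 in any library. A total of 3 libraries (replicate b of leaf-removed buds at 3 h, replicate d of leaf-removed buds at 1 h, and replicate c of intact buds at 1 h) had been found in earlier work on these data to deviate from their groups in the same way, with 2 more at 6 h, and values without these 5 are given wherever they moved a count by more than 1.5 times. In whole buds, fewer cells of a type and less RNA per cell cannot be told apart. Gene names are those of the matched Arabidopsis gene in the deposited table, and the genome build and positions are not given in the sources used here.

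Leaf removal changed fewer genes at 3 h than at 1 h, and the response of many genes differed between those times. Of 21852 genes tested, 7420 (34.0%) differed between leaf-removed and intact buds at 3 h, against 10684 (48.9%) at 1 h, at an adjusted p under 0.05 in edgeR's quasi-likelihood test. The difference between those 2 effects passed the same threshold for 5820 genes, or 26.6%. It was positive, here called an upward shift, for 2934 genes (13.4%) and negative, a downward shift, for 2886 genes (13.2%). Counts for gene lists below are to be read beside these shares of all genes. Scaling by library totals instead of trimmed means gave the same kind of result with 59.4% of calls upward and 40.6% downward, against 50.4% and 49.6%, and it moved the median shift of all genes to 0.08 from -0.04 on the log2 scale.

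A shift can be read in 3 ways, and fading was the commonest. An effect was called reversed where it passed the test at both times with opposite signs. Any other shifted effect was called faded where it passed at 1 h and was smaller at 3 h, and grown where it passed at 3 h and was smaller at 1 h. Faded effects numbered 3470 genes (15.9% of those tested), of which 1708 (7.82%) were rises and 1762 (8.06%) were falls. Grown effects numbered 1290 genes (5.9%), with 549 rises (2.51%) and 741 falls (3.39%). Reversed effects numbered 886 genes (4.05%), with 354 (1.62%) that fell at 3 h after a rise at 1 h and 532 (2.43%) that rose at 3 h after a fall at 1 h. The other 174 shifted genes (0.796%) met none of the 3 definitions. Of the faded rises, 418 (24.5%) still passed the test at 3 h, and of the faded falls, 256 (14.5%). The rest did not pass it at 3 h, which does not show that their effect was gone, and the median 3 h effect was 0.12 over the faded rises and 0.03 over the faded falls.

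**Figure D1:**
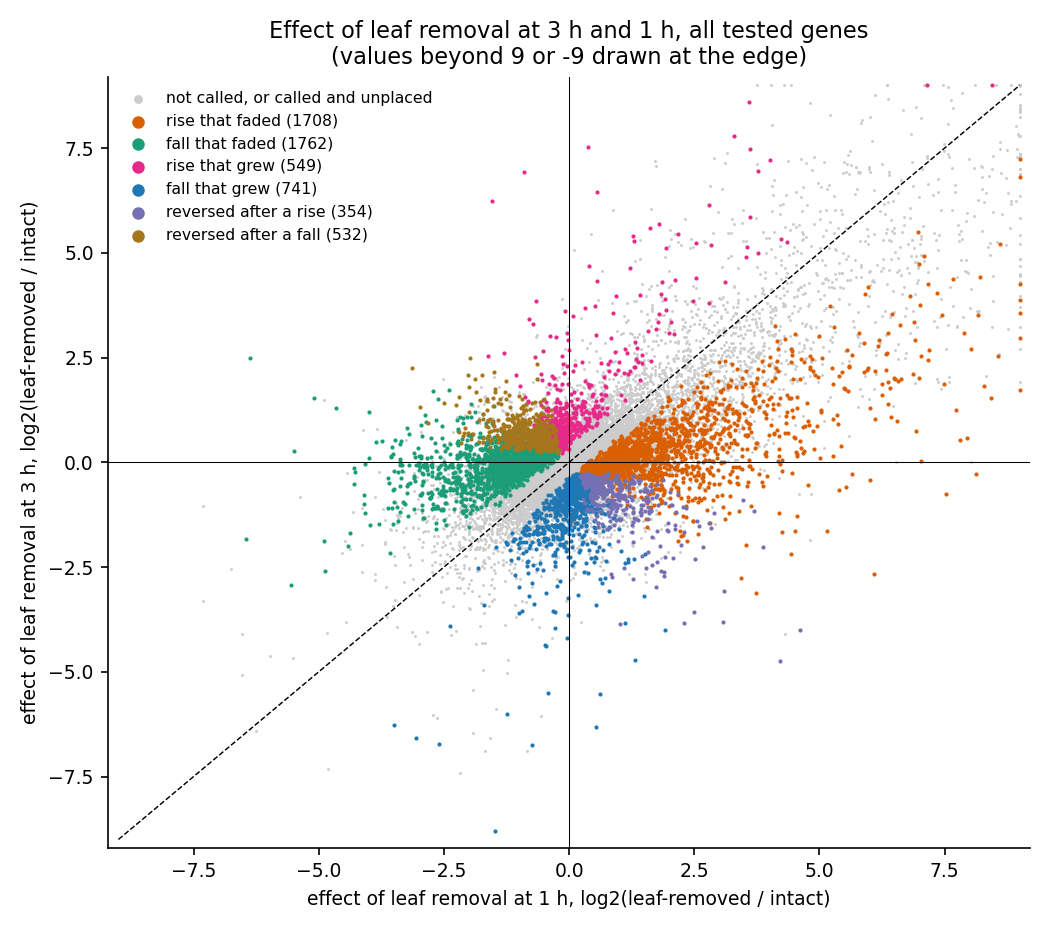
Effect of leaf removal at 3 h (vertical axis) against its effect at 1 h (horizontal axis), both as log2 of leaf-removed over intact buds, for the 21852 genes tested, coloured by class, with values beyond the axes drawn at the edge. Faded effects (3470 genes) lie along the horizontal axis, grown effects (1290 genes) along the vertical axis and reversed effects (886 genes) in the upper left and lower right corners.

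Levels in intact buds moved as well, and they moved more in some classes than in others. Intact buds differed between 3 h and 1 h for 1464 genes (6.7%), with 3.06% higher and 3.64% lower at 3 h, while leaf-removed buds differed for 8118 genes (37.1%). Among the faded rises, 89.4% of genes changed by more in leaf-removed than in intact buds between the times, against 67.6% of all genes tested, and the median change was -1.08 in leaf-removed and 0.17 in intact buds on the log2 scale. Among the grown rises that share was 54.3%, and the median change was 0.48 in leaf-removed and -0.45 in intact buds. In the genes reversed after a fall, 49.2% also differed in intact buds. These changes use the same libraries as the shift itself and are given as a description.

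The libraries taken at 6 h played no part in defining the classes, apart from sharing the estimate of spread. At 6 h, 3943 genes (18%) were higher and 3478 (15.9%) lower in leaf-removed than in intact buds. Of the 549 grown rises, 432 (78.7%) were higher at 6 h, and of the 741 grown falls, 552 (74.5%) were lower. Reversed effects kept the sign they had at 3 h: 276 of 354 genes (78.0%) reversed after a rise were lower at 6 h, and 407 of 532 genes (76.5%) reversed after a fall were higher. Of the 1708 faded rises, 267 (15.6%) were higher and 295 (17.3%) lower at 6 h, and of the 1762 faded falls, 476 (27.0%) were higher and 200 (11.4%) lower.

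**Figure D2:**
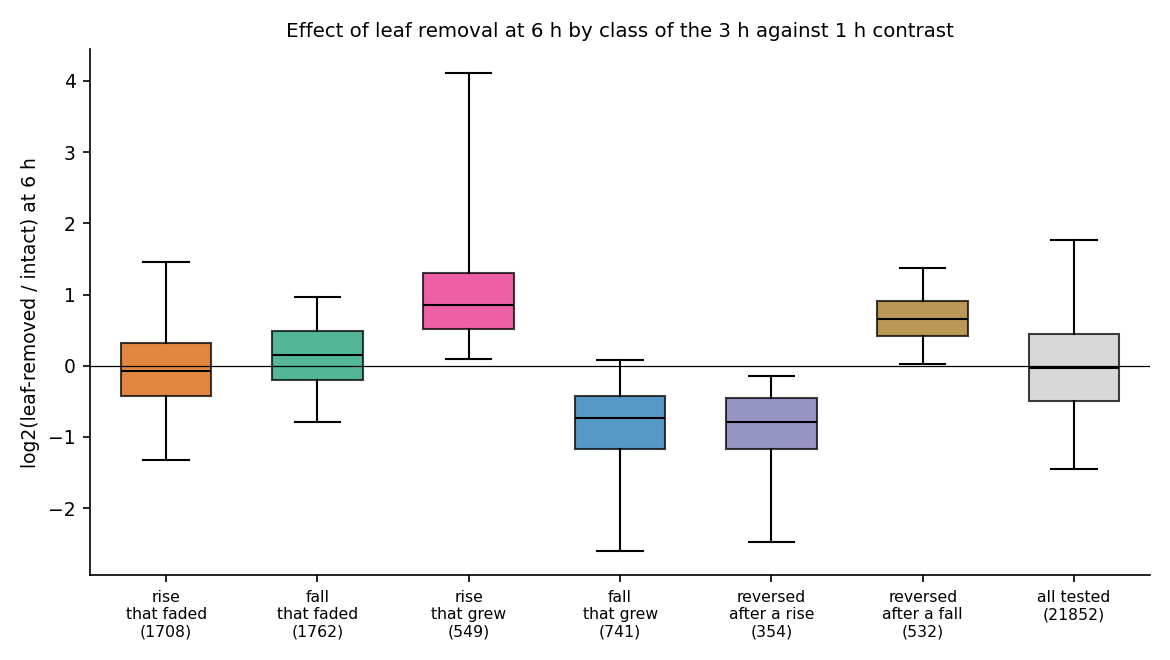
Effect of leaf removal at 6 h, as log2 of leaf-removed over intact buds, for the genes of each class (boxes are quartiles with the median, whiskers the 5th and 95th percentiles). Grown rises (median 0.85) and genes reversed after a fall (0.66) lie above 0, and grown falls (-0.74) and genes reversed after a rise (-0.79) below it, while faded rises (-0.08) and faded falls (0.15) sit near 0.

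The dormancy-associated genes reversed. All 4 tested members of the Dormancy/auxin associated family, whose Arabidopsis and pea relatives are abundant in dormant buds, were lower in leaf-removed than in intact buds at 3 h and higher at 1 h. Sobic.001G191200 had 26.4, 34.2 and 43.1 CPM in leaf-removed and 267, 225 and 224 CPM in intact buds at 3 h, and 232, 227 and 171 CPM in leaf-removed and 63.8, 72.6 and 125 CPM in intact buds at 1 h. Leaf-removed and intact buds did not overlap at either time. Its log2 effect was -2.79 ± 0.29 (SE) at 3 h and 1.27 ± 0.27 at 1 h, a shift of -4.06 ± 0.40 (adjusted p = 3.1e-06). The shifts of the other members were -3.71 ± 0.47 for Sobic.002G213800, -3.49 ± 0.37 for Sobic.001G377000 and -2.38 ± 0.31 for Sobic.007G148200. Each of the 4 was also lower in leaf-removed buds at 6 h, with a median log2 effect of -2.56. Both arms contributed: between 1 h and 3 h Sobic.001G191200 fell by 2.60 in leaf-removed buds and rose by 1.45 in intact buds (adjusted p = 0.0055).

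Of 6 tested genes of the branching network, 2 shifted up and 1 down. The BRANCHED1 relative Sobic.002G198400, a TCP factor that holds back bud outgrowth in Arabidopsis, had 7.14, 7.71 and 6.54 CPM in leaf-removed and 6.78, 6.56 and 9.69 CPM in intact buds at 3 h, and 3.42, 3.19 and 2.95 CPM in leaf-removed and 7.72, 6.09 and 6.54 CPM in intact buds at 1 h. The groups overlapped at 3 h and stood apart at 1 h, and the shift was 0.98 ± 0.26 (adjusted p = 0.0094), a faded fall. The second gene matched to BRANCHED1, Sobic.007G135700, averaged 0.96 ± 0.672 and 0.874 ± 0.203 CPM in leaf-removed and intact buds at 3 h and 1.82 ± 0.429 and 0.512 ± 0.276 CPM at 1 h (mean ± SD, n = 3, as for all group means below), and its shift of -1.71 ± 0.82 did not pass the test (adjusted p = 0.14). Without leaf-removed 3 h replicate d that shift was -2.36 (adjusted p = 0.049). MAX2 (Sobic.010G043000), the F-box protein of strigolactone signalling, was a faded rise with a shift of -1.11 ± 0.21, and MAX1 (Sobic.010G170400), an enzyme of strigolactone synthesis, was a faded fall with a shift of 2.82 ± 0.59.

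**Figure D3:**
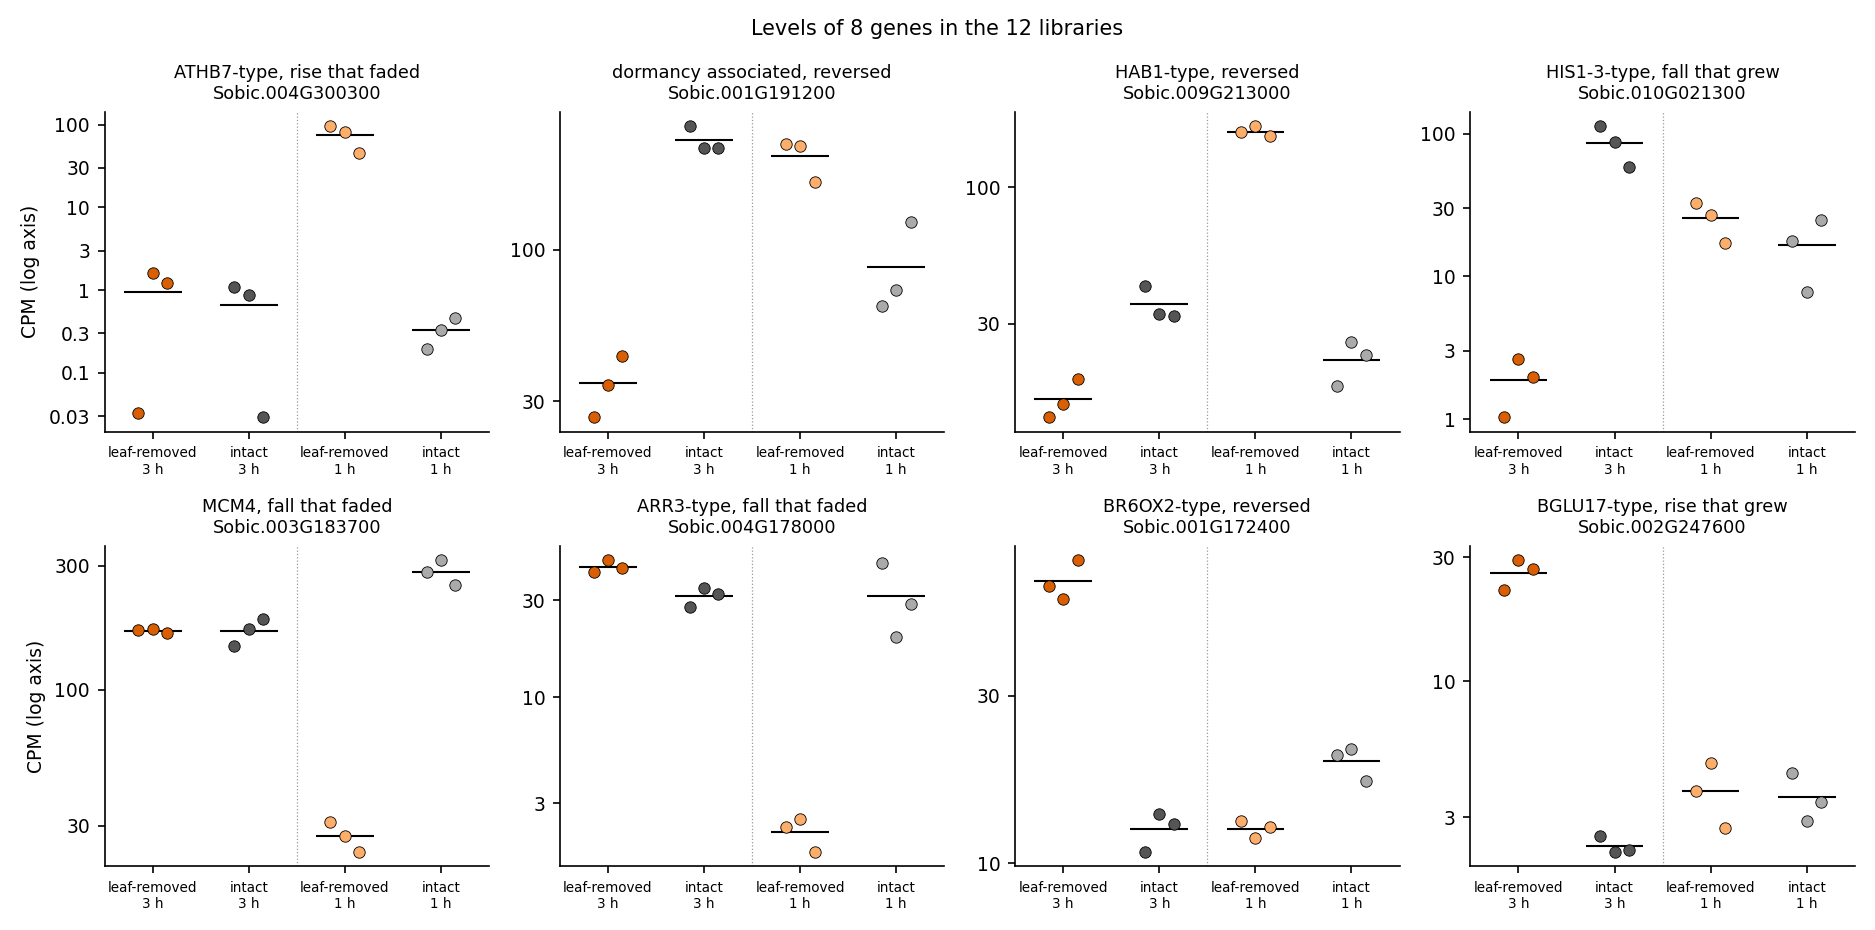
Levels of 8 genes in the 12 libraries (CPM on a log axis), with points for libraries and bars for group means, in leaf-removed and intact buds at 3 h and at 1 h. ATHB7 rises at 1 h, the dormancy gene and HAB1 reverse, and HIS1-3 falls at 3 h. MCM4 and ARR3 fall at 1 h without a called effect at 3 h, and BR6OX2 and BGLU17 rise at 3 h.

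Phosphatase genes of the abscisic acid pathway shifted down. Of the 11 tested PP2C phosphatases of the core abscisic acid pathway, which hold the signal off and are themselves induced by it in Arabidopsis, 9 shifted down and 0 up, against 13.2% down and 13.4% up of all genes. Of the 9, 5 were faded rises, 3 reversed after a rise and 1 was a grown fall. The median effect over the 11 was -0.24 at 3 h and 2.48 at 1 h on the log2 scale. At 6 h, 6 of the 11 were lower in leaf-removed buds and 0 higher. This list was added after results were seen, and its count stayed at 9 with any 1 library left out.

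HAB1 (Sobic.009G213000) had 13.2, 14.8 and 18.4 CPM in leaf-removed and 42.0, 32.7 and 32.3 CPM in intact buds at 3 h, and 162, 171 and 157 CPM in leaf-removed and 17.4, 25.5 and 22.9 CPM in intact buds at 1 h. It was 2.31-fold lower in leaf-removed buds at 3 h and 7.44-fold higher at 1 h, a shift of -4.10 ± 0.23 (adjusted p = 4.2e-08) with no overlap of groups at either time. The ABA-induced phosphatase HAI3 (Sobic.002G172000) reversed likewise with a shift of -4.86 ± 0.50, as did 1 of the genes matched to HAI2 (Sobic.003G354000) with -4.71 ± 0.58. The other gene matched to HAI2, Sobic.009G161800, was a grown fall: it averaged 0.905 ± 0.456 and 12.8 ± 1.07 CPM in leaf-removed and intact buds at 3 h, and 11.4 ± 4.84 and 5.23 ± 4.06 CPM at 1 h, with a shift of -4.95 ± 0.88 (adjusted p = 0.0006). A second gene matched to HAB1, Sobic.003G198200, was a faded rise, 3.0-fold higher at 1 h and without a called effect at 3 h.

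Rises in ATHB7 and in some dehydrin and LEA genes faded too. Abscisic acid itself was not measured here, and its part in these changes was not tested. Class genes were named only if annotated, with a mean of at least 5 CPM and libraries that did not overlap at the time of the larger effect. ATHB7 (Sobic.004G300300), a homeobox factor induced by abscisic acid and drought in Arabidopsis, had the strongest shift among such faded rises. It had 0.0323, 1.6 and 1.21 CPM in leaf-removed and 1.1, 0.863 and 0.029 CPM in intact buds at 3 h, and 96.0, 82.3 and 45.1 CPM in leaf-removed and 0.192, 0.33 and 0.454 CPM in intact buds at 1 h. The groups overlapped at 3 h, and its shift was -7.27 ± 1.16 (adjusted p = 0.00024). Of 20 tested dehydrins and LEA proteins, which protect drying cells, 8 were faded rises and 0 shifted up, against 7.82% and 13.4% of all genes. The downward count was 5 with a filter of 1 CPM in 9 libraries. With a replicate block it was 4 (over all times) or 2 (within each time). The dehydrin Sobic.001G149500 averaged 289 ± 40.1 and 44.7 ± 10.6 CPM in leaf-removed and intact buds at 3 h and 2798 ± 562 and 59.4 ± 15.1 CPM at 1 h, so that it was 6.46-fold higher in leaf-removed buds at 3 h and 47.1-fold higher at 1 h. EM6 (Sobic.009G104500), a LEA protein of seeds, had 9.2, 6.61 and 3.58 CPM in leaf-removed buds at 1 h and 0 reads in intact buds, and its shift (adjusted p = 0.049) no longer passed without any 1 library of leaf-removed 3 h or intact 1 h buds, intact 3 h replicate b, leaf-removed 1 h replicate b or leaf-removed 1 h replicate c.

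Synthesis, breakdown and perception of abscisic acid were less uniform. Of 13 tested genes of synthesis and breakdown, 4 shifted down and all 4 were faded rises, and 0 shifted up (1 without the 5 libraries). That is 30.8% called against 26.6% of all genes. CYP707A4 (Sobic.002G225400), which inactivates the hormone by hydroxylation, averaged 34.6 ± 8.97 and 8.36 ± 1.92 CPM in leaf-removed and intact buds at 3 h, and 138 ± 5.04 and 3.29 ± 1.3 CPM at 1 h, a shift of -3.34 ± 0.35. NCED9 (Sobic.001G155300), of the enzyme family that makes the first committed cleavage, had a shift of -4.40 ± 1.01 (adjusted p = 0.0041), and zeaxanthin epoxidase (Sobic.006G097500) one of -1.21 ± 0.17. A second NCED9 match (Sobic.002G037400) shifted by -6.85 ± 1.69 from a level under 1 CPM in every group mean. The other matched NCED and CCD genes (Sobic.001G509200, Sobic.004G268500 and Sobic.010G050300) and the other CYP707A genes (Sobic.004G268700 and Sobic.007G156300) did not pass the test of the shift.

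Of 12 tested abscisic acid receptors, 3 shifted down and 0 up, or 25.0% called against 26.6% of all genes. The downward count was 1 without intact 3 h replicate b, and the upward count was 2 without the 5 libraries. PYL8 (Sobic.009G080200) reversed, with 0.544 times the intact level in leaf-removed buds at 3 h and 2.78 times at 1 h. PYL6 (Sobic.001G401100) was a faded rise of another size, with means of 15.8 ± 4.09 and 0.759 ± 0.77 CPM in leaf-removed and intact buds at 3 h and 85.4 ± 29.1 and 0.279 ± 0.193 CPM at 1 h, and its shift of -3.78 ± 0.87 was -2.48 (adjusted p = 0.053) without intact 3 h replicate b.

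Some genes of carbon starvation, starch breakdown and trehalose metabolism shifted down as well. Of 10 tested sugar starvation markers, 4 shifted down, 0 up and 6 were not called, against 13.2% down and 13.4% up of all genes. Their median effect was -0.15 at 3 h and 1.62 at 1 h. AKINBETA1 (Sobic.009G180200), a regulatory subunit of the energy-sensing kinase SnRK1, had 17.8, 17.0 and 14.7 CPM in leaf-removed and 105, 66.1 and 63.1 CPM in intact buds at 3 h, and 84.6, 96.8 and 100 CPM in leaf-removed and 24.6, 33.0 and 45.3 CPM in intact buds at 1 h. The groups stood apart at both times in opposite directions, with a shift of -3.69 ± 0.32 (adjusted p = 1.2e-06). DIN10 (Sobic.010G057300), a raffinose synthase family gene induced in the dark in Arabidopsis, also reversed, with a shift of -2.79 ± 0.45. DIN1 (Sobic.010G270300) was a faded rise, 9.13-fold higher in leaf-removed buds at 1 h, with a shift of -3.64 ± 0.33.

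Of 9 tested beta-amylases, enzymes of starch breakdown and their relatives, 5 were faded rises, against 7.82% of all genes, and no other member shifted. BAM1 (Sobic.001G226600) averaged 1.02 ± 0.829 and 1.52 ± 0.651 CPM in leaf-removed and intact buds at 3 h and 24.4 ± 6.15 and 0.525 ± 0.274 CPM at 1 h, a shift of -6.12 ± 1.07. The gene matched to BAM9 (Sobic.001G372100) had 1.26, 5.21 and 6.73 CPM in leaf-removed and 11.5, 11.1 and 7.98 CPM in intact buds at 3 h, and 193, 211 and 77.1 CPM in leaf-removed and 8.49, 2.45 and 15.4 CPM in intact buds at 1 h. Its shift was -5.41 ± 0.93 (adjusted p = 0.00045). Among 23 genes of sucrose and trehalose metabolism, 10 shifted down and 2 up (52.2% called against 26.6% of all genes). The trehalose phosphate synthase family genes TPS10 (Sobic.007G126100) and TPS6 (Sobic.002G194700) reversed, with shifts of -2.60 ± 0.25 and -2.69 ± 0.31, and TPS7 (Sobic.003G296000) was a faded rise, 4.28-fold higher in leaf-removed buds at 1 h. STP1 (Sobic.002G338500), a monosaccharide transporter, faded only in part: it averaged 37.6 ± 22.2 and 2.76 ± 0.853 CPM in leaf-removed and intact buds at 3 h and 408 ± 162 and 3.19 ± 0.737 CPM at 1 h.

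**Figure D4:**
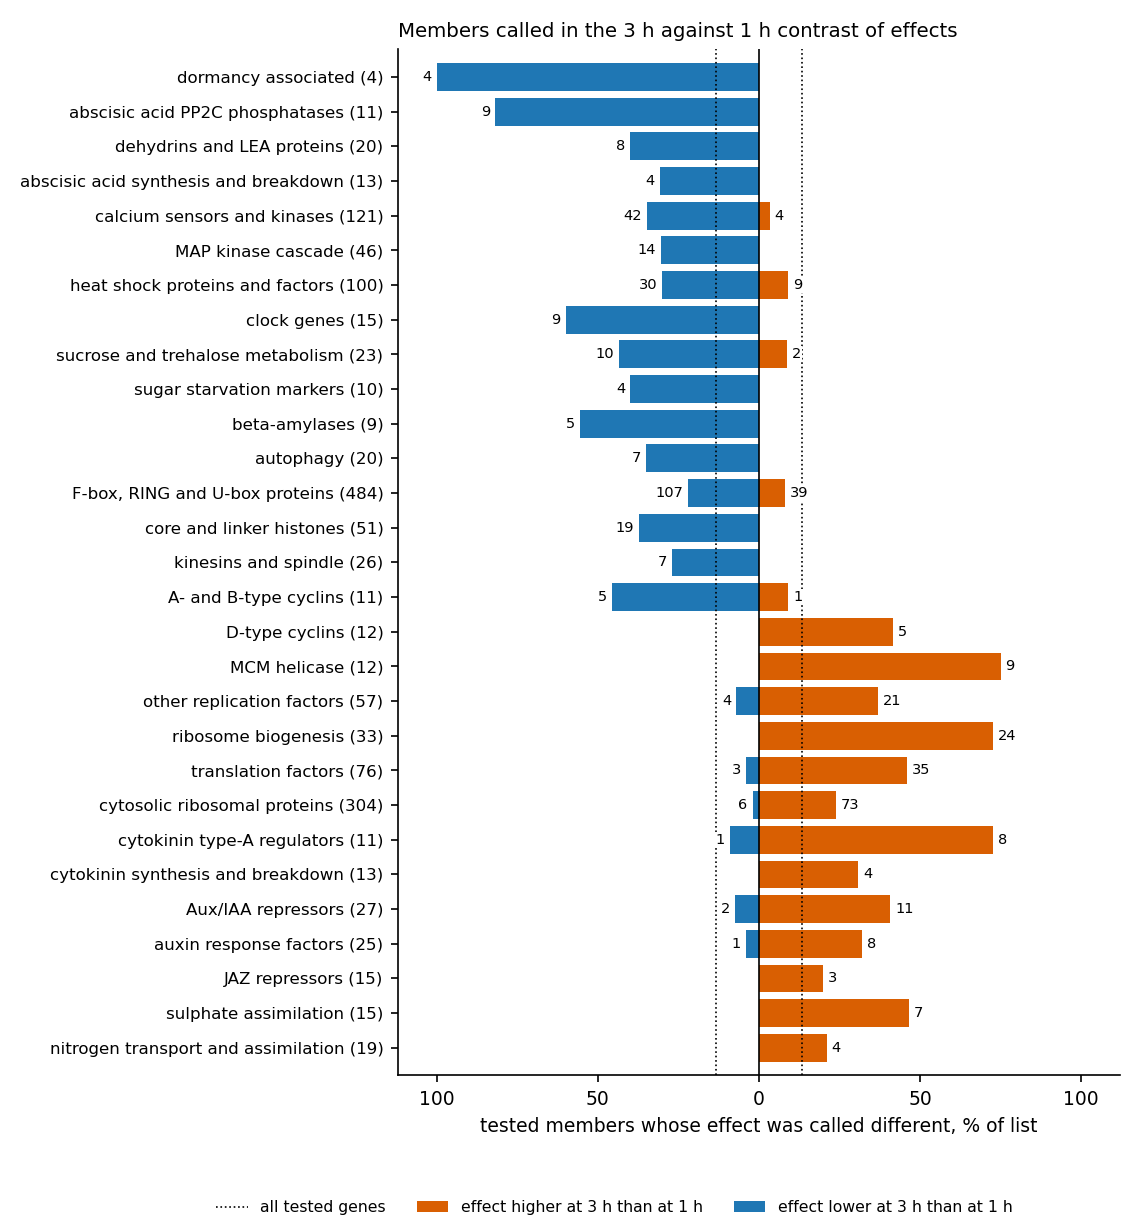
Percent of the tested members of 29 gene lists whose leaf removal effect was higher (orange, right) or lower (blue, left) at 3 h than at 1 h, with the number of genes at each bar and dotted lines at the percent of all genes tested (13.4% and 13.2%). Ribosome biogenesis, the MCM helicase and type-A cytokinin regulators lie far to the right, and the dormancy genes, PP2C phosphatases and clock genes far to the left.

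Signalling and stress lists shifted down by smaller margins. Of 121 calcium sensors and calcium-dependent kinases, 42 shifted down and 4 up (7 up without leaf-removed 1 h replicate d), or 38.0% called against 26.6% of all genes. The calls included 26 faded rises and 10 genes reversed after a rise. The downward count was 30 to 38 with any 1 library left out, and 24 with a replicate block within each time. CIPK10 (Sobic.005G012000), a kinase activated by calcium sensors, averaged 34.0 ± 4.99 and 104 ± 24.6 CPM in leaf-removed and intact buds at 3 h and 474 ± 102 and 123 ± 40.5 CPM at 1 h, with a shift of -3.56 ± 0.35. Of 46 genes of the MAP kinase cascade, 14 shifted down and 0 up (1 up without the 5 libraries), or 30.4% called against 26.6% of all genes. The downward count was 8 without intact 1 h replicate b, 9 without leaf-removed 1 h replicate b, leaf-removed 1 h replicate c or leaf-removed 3 h replicate c, and 21 without the 5 libraries. MAPKKK3 (Sobic.004G176900) was 12.1-fold higher in leaf-removed buds at 1 h and had 0.948 times the intact level at 3 h. Of 100 heat shock proteins and factors, 30 shifted down and 9 up, or 39.0% called against 26.6% of all genes. That downward count was 20 to 27 with any 1 library left out, and 13 with a replicate block within each time. The factor HSFC1 (Sobic.010G164400) reversed, with means of 9.96 ± 3.05 and 27.1 ± 2.51 CPM in leaf-removed and intact buds at 3 h and 84.1 ± 14.2 and 12.1 ± 2.33 CPM at 1 h, and a shift of -4.25 ± 0.34 (adjusted p = 6.5e-07).

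Clock and protein turnover genes were also more often shifted down than up. Of 15 clock genes, 9 shifted down and 0 up. The pseudo-response regulator PRR5 (Sobic.005G044400) reversed, with 0.612 times the intact level in leaf-removed buds at 3 h and 1.67 times at 1 h. A second PRR5 (Sobic.002G275100) was a faded rise whose level changed mainly in intact buds, with a log2 change between 1 h and 3 h of 0.28 in leaf-removed and 2.07 in intact buds. ELF3 (Sobic.009G257300), of the evening complex of the clock, was a faded rise with a shift of -1.56 ± 0.22. Of 484 F-box, RING and U-box proteins, which select proteins for degradation, 107 shifted down and 39 up (30.2% called against 26.6% of all genes). The downward count was 80 to 105 with any 1 library left out. Of 20 autophagy genes, 7 were faded rises, a count that was 3 without intact 3 h replicate a or leaf-removed 1 h replicate b, and 4 without intact 1 h replicate b, intact 3 h replicate b, leaf-removed 1 h replicate c or leaf-removed 3 h replicate b. ATG8C (Sobic.007G068900), which coats the autophagosome, was 2.82-fold higher in leaf-removed buds at 1 h, with a shift of -1.87 ± 0.32.

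Cytokinin response genes went the opposite way. Of 11 tested type-A response regulators, which cytokinin induces and which damp its signal, 8 shifted up and 1 down. The 8 comprised 6 faded falls and 2 genes reversed after a fall, and the median effect over the 11 was 0.44 at 3 h and -2.24 at 1 h. ARR3 (Sobic.004G178000) had 41.2, 47.3 and 43.5 CPM in leaf-removed and 27.7, 34.4 and 32.1 CPM in intact buds at 3 h, and 2.28, 2.51 and 1.73 CPM in leaf-removed and 45.7, 19.7 and 28.7 CPM in intact buds at 1 h. It was 14.5-fold lower in leaf-removed buds at 1 h, and its shift was 4.34 ± 0.42 (adjusted p = 2.7e-06). Its 3 h effect of 0.49 ± 0.27 did not pass the test (adjusted p = 0.19), though the libraries did not overlap at either time. A second gene matched to ARR3, Sobic.006G090400, reversed, with 1.67 times the intact level in leaf-removed buds at 3 h and 0.454 times at 1 h.

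Enzymes that inactivate cytokinin were lower at 1 h as well. Of 13 tested genes of cytokinin synthesis and breakdown, 4 were faded falls and no other member shifted (30.8% called against 26.6% of all genes). The 3 with the smallest adjusted p were cytokinin oxidases. CKX1 (Sobic.003G421100) had 5.95, 4.13 and 4.08 CPM in leaf-removed and 26.2, 25.3 and 34.8 CPM in intact buds at 3 h, and 1.14, 1.64 and 1.4 CPM in leaf-removed and 38.4, 41.8 and 41.8 CPM in intact buds at 1 h. Groups stood apart at both times. The fall of CKX1 faded without being lost, with 6.08-fold lower levels in leaf-removed buds at 3 h and 29.2-fold lower levels at 1 h, and at 6 h its log2 effect was -3.87.

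Among auxin genes the lists differed in their counts. Of 27 Aux/IAA repressors, 11 shifted up and 2 down (4 down without the 5 libraries), or 48.1% called against 26.6% of all genes. Of 25 auxin response factors, 8 shifted up and 1 down (36.0% called, and 3 down without the 5 libraries), and 7 of the 8 were faded falls. Of 37 auxin transport and conjugation genes, 8 shifted up and 3 down (29.7% called, and 5 down without the 5 libraries). With a replicate block within each time, 7 Aux/IAA and 3 transport and conjugation genes shifted up. The SAUR genes, early targets of auxin, had 3 upward and 2 downward shifts among 37, or 13.5% called against 26.6% of all genes. The upward SAUR count was 6 without the 5 libraries, 5 without leaf-removed 1 h replicate b or intact 1 h replicate c, and 7 without leaf-removed 3 h replicate b. ARF3 (Sobic.009G196900) averaged 43.9 ± 3.21 and 35.8 ± 1.33 CPM in leaf-removed and intact buds at 3 h and 12.1 ± 0.331 and 32.9 ± 2.43 CPM at 1 h, a shift of 1.73 ± 0.17. The efflux carrier PIN4 (Sobic.005G025900), which moves auxin out of cells, averaged 30.1 ± 7.87 and 19.3 ± 1.36 CPM in leaf-removed and intact buds at 3 h and 4.18 ± 0.554 and 32.1 ± 7.86 CPM at 1 h, a shift of 3.58 ± 0.38. GH3-2 (Sobic.001G331200), an enzyme family that conjugates auxin to amino acids, had a shift of 4.05 ± 0.84 and was lower in leaf-removed buds again at 6 h (log2 effect -2.80, adjusted p = 0.002).

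Brassinosteroid, gibberellin, ethylene and jasmonate genes gave a few further shifts. BR6OX2 (Sobic.001G172400), which makes the last step of brassinosteroid synthesis, reversed after a fall: it had 61.7, 56.5 and 73.0 CPM in leaf-removed and 10.8, 13.8 and 12.9 CPM in intact buds at 3 h, and 13.2, 11.8 and 12.7 CPM in leaf-removed and 20.3, 21.1 and 17.2 CPM in intact buds at 1 h. Its shift was 2.99 ± 0.19 (adjusted p = 9.6e-08), and DWF4 (Sobic.006G114600), an earlier enzyme of that pathway, was a faded fall with a shift of 0.85 ± 0.25. Of 10 brassinosteroid synthesis genes these were the only ones that shifted (20.0% called against 26.6% of all genes), and 4 shifted up without the 5 libraries. A pair of GA2OX1 genes, which inactivate gibberellin, were faded rises among 13 gibberellin oxidases, of which 0 shifted up (3 without the 5 libraries) and 15.4% were called. Of the pair, Sobic.003G300800 averaged 22.9 ± 17.9 and 31.6 ± 10.4 CPM in leaf-removed and intact buds at 3 h and 144 ± 64.4 and 15.5 ± 7.24 CPM at 1 h. The ethylene genes ACS2 (Sobic.006G187900) and ACO4 (Sobic.004G313100) were faded rises with shifts of -3.13 ± 0.90 and -2.12 ± 0.48.

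Jasmonate repressors stayed up. All 15 tested JAZ genes, which jasmonate induces and which repress its response, were higher in leaf-removed buds at 3 h and 14 were at 1 h. Of the 15, 3 shifted, all upward (1 more shifted down without the 5 libraries), or 20.0% called against 26.6% of all genes. JAZ2 (Sobic.002G374100) averaged 395 ± 53.8 and 90.6 ± 3.51 CPM in leaf-removed and intact buds at 3 h and 359 ± 57.2 and 191 ± 17.0 CPM at 1 h, so that the growth of its effect, 1.22 ± 0.18, went with a change of 0.14 in leaf-removed buds and of -1.08 in intact buds. JAZ3 (Sobic.007G132700) shifted by 1.12 ± 0.16, and JAZ1 (Sobic.002G214800) by 1.21 ± 0.40 (adjusted p = 0.034), a call that was lost (adjusted p up to 0.076) without leaf-removed 3 h replicate c or d, intact 3 h replicate a, leaf-removed 1 h replicate d, or intact 1 h replicate b or d. Of 27 jasmonate synthesis genes, 4 (14.8%) shifted down and 0 up, close to the 13.2% of all genes that shifted down, and without the 5 libraries 7 shifted down and 3 up. The 4 were faded rises, among them OPR3 (Sobic.007G151100), which was 2.37-fold higher in leaf-removed buds at 3 h and 6.89-fold higher at 1 h.

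DNA replication genes were mostly lower in leaf-removed buds at 1 h, and for many of them the fall had faded by 3 h. All 12 tested MCM genes, which encode the replicative helicase and its partners, were lower in leaf-removed buds at 1 h. At 3 h 6 were lower, and 9 of the 12 shifted up as faded falls. MCM4 (Sobic.003G183700) had 170, 171 and 165 CPM in leaf-removed and 147, 171 and 187 CPM in intact buds at 3 h, and 31.0, 27.4 and 23.9 CPM in leaf-removed and 284, 315 and 253 CPM in intact buds at 1 h. The groups overlapped at 3 h and were 10.3-fold apart at 1 h, and the shift was 3.37 ± 0.18 (adjusted p = 4.2e-08). At 6 h, 7 of the 12 were higher in leaf-removed buds and 1 lower. Levels of MCM4 also dropped by 0.75 in intact buds between 1 h and 3 h.

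Of 57 other replication factors, 29 were lower after leaf removal at 3 h and 43 at 1 h. Upward shifts were called for 21, all of them faded falls, and 4 shifted down as grown falls. The downward count was 1 without intact 1 h replicate b, and 2 without intact 3 h replicate a, leaf-removed 1 h replicate c or leaf-removed 1 h replicate d. ETG1 (Sobic.003G055600), an E2F target that works with the MCM complex, had 122, 125 and 107 CPM in leaf-removed and 92.0, 127 and 108 CPM in intact buds at 3 h, and 11.5, 13.0 and 11.7 CPM in leaf-removed and 210, 208 and 159 CPM in intact buds at 1 h. Its shift was 4.11 ± 0.21 (adjusted p = 2.7e-08). The large primase subunit (Sobic.006G051000) shifted by 3.71 ± 0.27 and replication protein A2 (Sobic.004G355500) by 2.94 ± 0.23. Of 12 D-type cyclins, which drive entry into the cycle, 5 shifted up and 0 down, a count that was 2 without intact 3 h replicate c or leaf-removed 3 h replicate d, 3 without leaf-removed 3 h replicate c, and 8 without the 5 libraries. CYCD1;1 (Sobic.008G147500) averaged 29.4 ± 4.2 and 71.2 ± 9.43 CPM in leaf-removed and intact buds at 3 h and 6.5 ± 1.61 and 60.5 ± 3.19 CPM at 1 h, a shift of 1.94 ± 0.25.

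Falls that grew were found among A- and B-type cyclins and histones. Of 11 A- and B-type cyclins, 10 were lower at 3 h after leaf removal and 5 at 1 h, and 5 shifted down against 1 up. CYCB1;2 (Sobic.003G328500), a cyclin of the entry into mitosis, had 24.0, 25.2 and 27.2 CPM in leaf-removed and 103, 110 and 107 CPM in intact buds at 3 h, and 106, 131 and 89.6 CPM in leaf-removed and 117, 93.6 and 125 CPM in intact buds at 1 h. The groups were 4.19-fold apart at 3 h and overlapped at 1 h, a shift of -2.03 ± 0.24 (adjusted p = 1.8e-05). CYCA3;1 (Sobic.001G169800) was the one that shifted up, by 1.40 ± 0.19. Of 26 kinesin and spindle genes, 16 were lower after leaf removal at 3 h and 18 at 1 h, so that the fall of most was present at 1 h. Grown falls were called for 7 of the 26 and upward shifts for 0, or 26.9% called against 26.6% of all genes. AUR2 (Sobic.003G034600), an Aurora kinase of the spindle, averaged 11.1 ± 0.968 and 31.9 ± 0.397 CPM in leaf-removed and intact buds at 3 h and 25.8 ± 1.55 and 29.8 ± 3.94 CPM at 1 h.

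Of 51 core and linker histones, 29 were lower and 0 higher in leaf-removed buds at 3 h, against 1 lower and 1 higher at 1 h. Downward shifts were called for 19, of which 17 were grown falls, and upward shifts for 0. The count depended on single libraries: it was 6 without intact 3 h replicate b, leaf-removed 3 h replicate b, leaf-removed 1 h replicate b or leaf-removed 1 h replicate c, 10 without intact 3 h replicate c or intact 1 h replicate c, and 37 without the 5 libraries. The median effect over the 51 genes was -1.44 at 3 h and 0.20 at 1 h, and 0.20 at 6 h. HIS1-3 (Sobic.010G021300), matched to a stress-inducible linker histone of Arabidopsis, had the strongest shift of the list. It had 1.03, 2.64 and 1.96 CPM in leaf-removed and 113, 87.7 and 58.3 CPM in intact buds at 3 h, and 32.7, 26.9 and 17.1 CPM in leaf-removed and 17.7, 7.77 and 24.7 CPM in intact buds at 1 h. It was 46.1-fold lower in leaf-removed buds at 3 h, with a shift of -6.14 ± 0.78 (adjusted p = 3.4e-05), and its log2 effect was still -4.80 at 6 h.

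**Figure D5:**
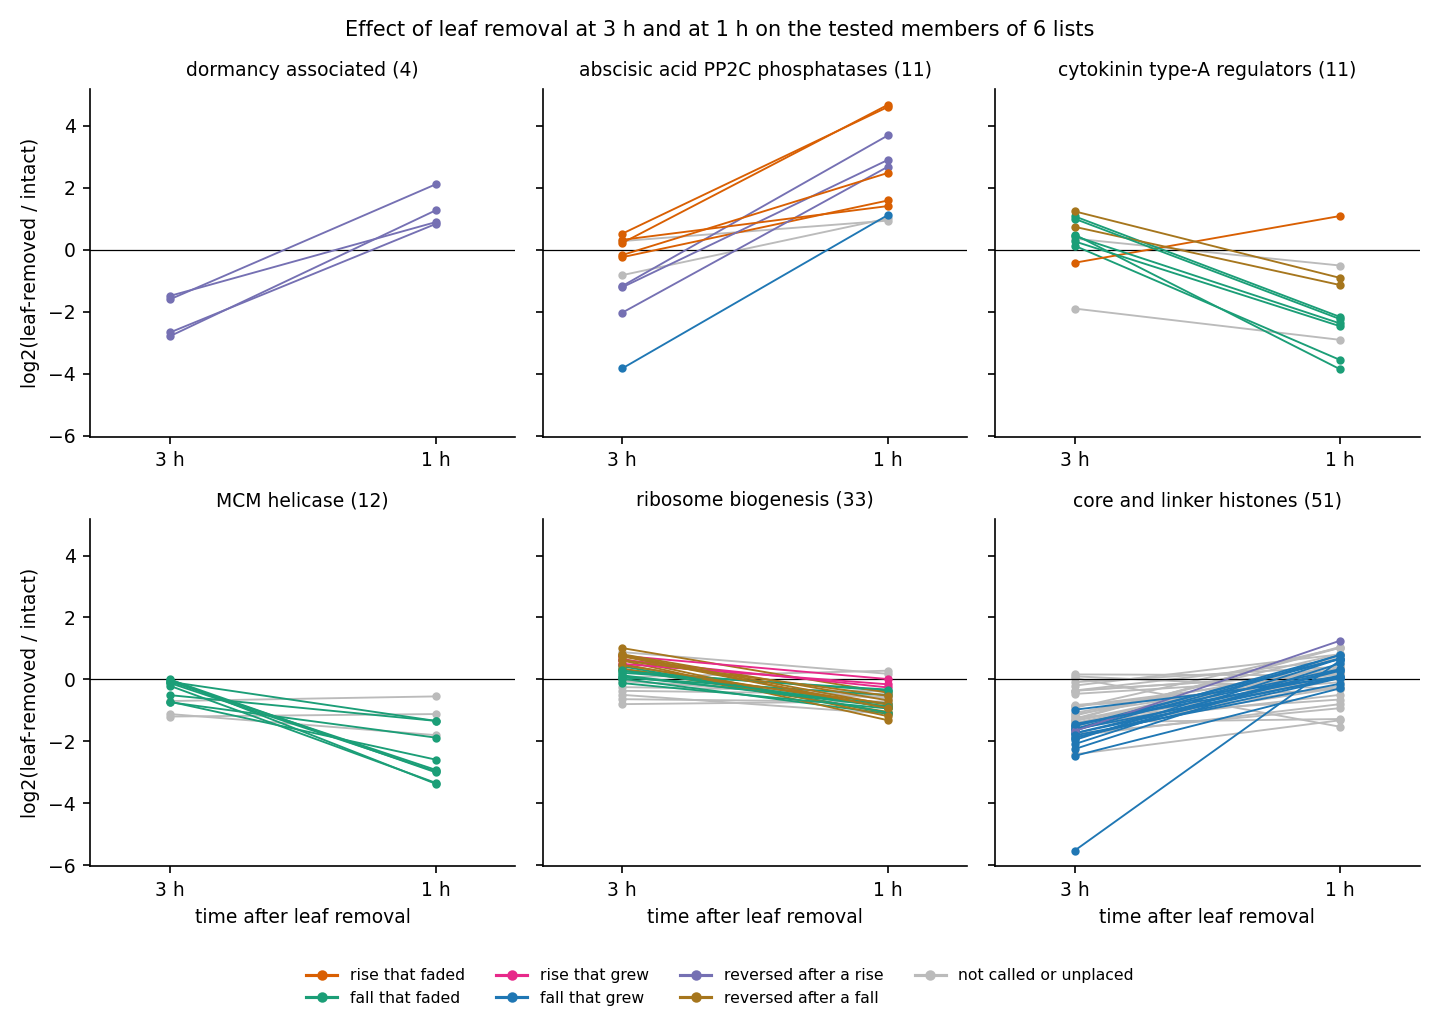
Leaf removal effect (log2 of leaf-removed over intact buds) of each tested member of 6 gene lists at 3 h and at 1 h. The 4 dormancy genes lie below 0 at 3 h and above it at 1 h, PP2C phosphatases (11 genes) go down between 1 h and 3 h, type-A regulators (11), MCM genes (12) and ribosome biogenesis genes (33) go up, and histones (51) spread below 0 at 3 h.

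Among genes of ribosome production and translation, called shifts were mostly upward. Of 33 ribosome biogenesis genes, 24 shifted up and 0 down, with 12 reversed after a fall, 9 faded falls and 3 grown rises. At 3 h, 16 were higher and 1 lower in leaf-removed buds, against 0 higher and 25 lower at 1 h. The Brix-domain ribosomal RNA processing gene Sobic.009G190300 had 145, 138 and 131 CPM in leaf-removed and 78.6, 77.7 and 85.2 CPM in intact buds at 3 h, and 76.4, 90.0 and 92.8 CPM in leaf-removed and 155, 156 and 147 CPM in intact buds at 1 h. Its effect was 0.78 ± 0.10 at 3 h and -0.82 ± 0.10 at 1 h, and between 1 h and 3 h it rose by 0.68 in leaf-removed buds and fell by 0.92 in intact buds. Nucleolin-like 2 (Sobic.001G224200), a nucleolar protein of ribosomal RNA transcription and processing, reversed with a shift of 1.40 ± 0.13, and its level changed by 1.25 in leaf-removed and -0.15 in intact buds.

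Of 304 cytosolic ribosomal protein genes, 73 shifted up and 6 down, or 26.0% called against 26.6% of all genes. The calls included 31 grown rises and 28 genes reversed after a fall. At 6 h, 162 were higher in leaf-removed buds and 4 lower. The upward count was 121 without the 5 libraries, and copies of these genes share reads in part. Sobic.003G351000, a ribosomal protein L36e gene, averaged 144 ± 18.9 and 36.0 ± 4.72 CPM in leaf-removed and intact buds at 3 h and 63.1 ± 5.22 and 99.3 ± 13.2 CPM at 1 h, a shift of 2.66 ± 0.19 (adjusted p = 2.4e-07). Of 76 translation factors, 35 shifted up and 3 down. The initiation factor gene EIF3F (Sobic.009G212300) was a grown rise, 2.32-fold higher in leaf-removed buds at 3 h and 0.876 times the intact level at 1 h.

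Sulphate assimilation genes shifted up. Of 15 tested, 7 shifted up and 0 down (2 down without the 5 libraries), with a median effect of 1.21 at 3 h and -0.04 at 1 h, in a list added after results were seen. The ATP sulphurylase APS3 (Sobic.001G094300), which activates sulphate, had 190, 182 and 183 CPM in leaf-removed and 60.7, 73.1 and 79.6 CPM in intact buds at 3 h, and 38.2, 28.6 and 41.8 CPM in leaf-removed and 42.0, 34.1 and 36.9 CPM in intact buds at 1 h. Its shift was 1.44 ± 0.21 (adjusted p = 0.00012). The APS reductase APR3 (Sobic.002G314300), the next enzyme, averaged 134 ± 6.03 and 35.4 ± 14.0 CPM in leaf-removed and intact buds at 3 h and 8.36 ± 1.56 and 20.0 ± 15.9 CPM at 1 h, a shift of 3.18 ± 0.65, and sulphite reductase (Sobic.009G189400) was 2.49-fold higher at 3 h. Of 19 genes of nitrogen transport and assimilation, 4 shifted up and 0 down, or 21.1% called against 26.6% of all genes. Glutamine synthetase GSR2 (Sobic.001G116400) averaged 74.6 ± 33.6 and 1.71 ± 0.988 CPM in leaf-removed and intact buds at 3 h and 12.8 ± 4.19 and 2.83 ± 0.76 CPM at 1 h, a shift of 3.29 ± 0.65. Nitrate reductase NIA1 (Sobic.007G153900) reversed after a fall, with 2.85 times the intact level in leaf-removed buds at 3 h and 0.385 times at 1 h.

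Several phosphate starvation genes were grown falls. PAP3 (Sobic.001G442300), a purple acid phosphatase, had 0.129, 0.335 and 0.227 CPM in leaf-removed and 26.2, 25.5 and 22.2 CPM in intact buds at 3 h, and 0.472, 0.676 and 0.332 CPM in leaf-removed and 2.66, 3.64 and 2.57 CPM in intact buds at 1 h. Its shift of -4.13 ± 0.59 (adjusted p = 9.4e-05) went with a rise of 3.05 in intact buds between 1 h and 3 h. SPX2 (Sobic.004G084900), a phosphate sensor protein, had 0.0862 times the intact level at 3 h and 0.797 times at 1 h, and PS2 (Sobic.003G279300), a phosphate starvation-induced gene, averaged 0.902 ± 0.275 and 9.53 ± 1.41 CPM in leaf-removed and intact buds at 3 h and 3.91 ± 2.4 and 2.7 ± 1.16 CPM at 1 h. The whole list of 49 phosphate response genes had 11 downward and 4 upward shifts, or 30.6% called against 26.6% of all genes. Leaving out 1 library gave 5 to 9 downward calls. It gave 5 without intact 3 h replicate a, leaf-removed 3 h replicate c or leaf-removed 1 h replicate b, 6 without intact 3 h replicate b, leaf-removed 1 h replicate c or intact 1 h replicate b, and 9 without leaf-removed 3 h replicate d. Each of the other 5 libraries left out gave 7.

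Several genes outside these lists headed their classes. The bHLH factor EGL3 (Sobic.006G175500), a regulator of flavonoid and epidermal cell genes in Arabidopsis, had 4.62, 5.33 and 6.35 CPM in leaf-removed and 0.22, 0.338 and 0.551 CPM in intact buds at 3 h, and 0.472, 0.434 and 0.295 CPM in leaf-removed and 0.705, 0.496 and 0.696 CPM in intact buds at 1 h. It was 14.3-fold higher in leaf-removed buds at 3 h, with a shift of 4.50 ± 0.49 (adjusted p = 8.4e-06) and a log2 effect of 4.45 at 6 h. BGLU17 (Sobic.002G247600), a beta-glucosidase, averaged 26.2 ± 3.42 and 2.32 ± 0.176 CPM in leaf-removed and intact buds at 3 h and 3.78 ± 1.05 and 3.59 ± 0.795 CPM at 1 h, a shift of 3.43 ± 0.50. CSLD5 (Sobic.002G334200), a cellulose synthase-like protein, was also a grown rise, but its log2 level changed by 0.48 in leaf-removed and by -3.29 in intact buds between 1 h and 3 h. The RING finger gene Sobic.010G023600 had 17.3, 237 and 16.2 CPM in leaf-removed and 1.21, 0.9 and 0.986 CPM in intact buds at 3 h, so that 1 library set its mean, and its shift of 5.89 ± 1.20 was 3.55 without that library (adjusted p = 0.00087).

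A bHLH gene without an Arabidopsis symbol, Sobic.001G488400, had the strongest reversal after a fall among annotated genes with a mean of at least 5 CPM and libraries apart at the time of the larger effect. It had 40.6, 54.6 and 53.0 CPM in leaf-removed and 8.46, 13.2 and 9.6 CPM in intact buds at 3 h, and 2.83, 2.22 and 0.775 CPM in leaf-removed and 23.7, 14.1 and 13.1 CPM in intact buds at 1 h. Groups stood apart at 1 h, which naming required, and also at 3 h, and the shift was 5.38 ± 0.54 (adjusted p = 3.8e-06). TCP4 (Sobic.003G018700), a factor that limits cell division in Arabidopsis leaves, reversed as well, with 2.49 times the intact level in leaf-removed buds at 3 h and 0.441 times at 1 h. The homeobox gene ATH1 (Sobic.010G169200), a BELL-type factor of the shoot apex, averaged 96.1 ± 27.4 and 47.9 ± 7.04 CPM in leaf-removed and intact buds at 3 h and 12.7 ± 0.424 and 44.0 ± 15.9 CPM at 1 h, a shift of 2.79 ± 0.37. Of the 28 meristem and bud identity genes, 4 shifted up and 2 down, or 21.4% called against 26.6% of all genes, and 7 shifted up and 1 down without the 5 libraries. KNAT1 (Sobic.002G023900), a KNOTTED-like meristem factor, was a faded fall with a shift of 1.53 ± 0.39. Among annotated genes with a mean of at least 5 CPM and libraries apart at the time of the larger effect, the strongest reversal after a rise was in Sobic.004G221900, of unknown function. It averaged 0.483 ± 0.334 and 6.73 ± 2.87 CPM in leaf-removed and intact buds at 3 h and 30.3 ± 10.1 and 3.57 ± 1.6 CPM at 1 h.

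For several large families the share called lay near or below the 26.6% of all genes. Of 98 MYB factors, 11 shifted up and 14 down (25.5% called, and 17 up without the 5 libraries). Of 73 NAC factors, 3 shifted up and 15 down (24.7%). Of 61 sugar transporters, 6 shifted up and 7 down (21.3%, and 14 down without the 5 libraries). Of 155 cytochrome P450 genes, 20 shifted up and 11 down (20.0%, and 31 up without the 5 libraries). Shares were somewhat higher for 58 bZIP factors, with 7 up and 11 down (31.0%, and 11 up without the 5 libraries), and for 104 bHLH factors, with 21 up and 16 down (35.6%). NAC025 (Sobic.008G021800), a NAC-family factor, averaged 100 ± 28.3 and 109 ± 27.1 CPM in leaf-removed and intact buds at 3 h and 619 ± 128 and 109 ± 6.74 CPM at 1 h, a faded rise with a shift of -2.62 ± 0.32. Of 31 cuticle and wax genes, 6 shifted up and 0 down (19.4% called, and 15 up and 1 down without the 5 libraries). CER1 (Sobic.001G222700), an enzyme of wax alkane synthesis, was 2.83-fold higher in leaf-removed buds at 3 h. A mannose-binding lectin (Sobic.002G093700) averaged 1130 ± 84.9 and 1.31 ± 0.469 CPM in leaf-removed and intact buds at 3 h and 1222 ± 22.3 and 3.53 ± 0.577 CPM at 1 h, and its small shift of 1.33 ± 0.28 went with a fall of 1.44 in intact buds.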

How the data were processed

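Libraries were made with the Illumina TruSeq kit and sequenced as 125 bp reads, per the labels' protocols. The authors deposited counts of exon, intron and gene reads per gene, and the aligner, build and strand setting are not given in the sources used here. Total exon counts were used as deposited. Genes were filtered with filterByExpr, which left 21852 of 34211, scaled by TMM and fitted with edgeR 4.0.16 (R 4.3.3) in 6 groups over all 18 libraries, with 12 residual degrees of freedom. The shift was the contrast (leaf-removed minus intact at 3 h) minus (leaf-removed minus intact at 1 h), with Benjamini-Hochberg adjustment over all genes. CPM are TMM-scaled. Alternatives used DESeq2 1.42.0, other scalings, filters, covariates and libraries. On simulated counts for 21572 genes, few of them changed, the shift test recovered 74.6% of 4-fold, 23.9% of 2-fold and 3% of 1.5-fold changes, with 1 false call.

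The comparison and the 65 gene lists were chosen with earlier results of these data known. Lists were drawn from symbols and titles, 19 had wrong matches excluded after the annotation was seen, and 5 were added after results were seen (PP2C phosphatases, abscisic acid receptors, beta-amylases, sulphate assimilation, brassinosteroid synthesis). Named genes included the 5 strongest per class and direction among annotated genes whose mean reached 5 CPM. For these, leaf-removed and intact libraries also had to stand apart at the time of the larger effect. The 3 genes of smallest adjusted p per list were named too, as were all BRANCHED1, dormancy, NCED, CYP707A and JAZ genes. These rules need not cover every gene named.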

Additional observations from a re-analysis of the deposited data

Results flagged for a closer look

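The effect of leaf removal had opposite signs at 3 h and 1 h for 886 genes, each with both effects past the threshold and a difference between times past it in edgeR's quasi-likelihood test. Differences (3 h effect minus 1 h effect, log2) were ranked among annotated genes with a mean of at least 5 CPM and libraries apart at the time of the larger effect. After a rise at 1 h, the strongest were -6.90 for Sobic.004G221900 and -4.87 for Sobic.004G199600, both of unknown function. They were followed by -4.86 for HAI3 (Sobic.002G172000), and by -4.71 for both PCR2 (Sobic.001G024500) and HAI2 (Sobic.003G354000). Sobic.004G199600 had 1.42, 1.68 and 2.42 CPM in leaf-removed and 29.9, 24.3 and 25.0 CPM in intact buds at 3 h, and 21.2, 23.0 and 15.2 CPM in leaf-removed and 8.91, 5.54 and 14.7 CPM in intact buds at 1 h.

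After a fall at 1 h, the strongest differences among such genes were 5.38 for the bHLH gene Sobic.001G488400, 3.74 for NF-YC13 (Sobic.003G040500), 3.60 for BRH1 (Sobic.010G006400), 3.18 for APR3 (Sobic.002G314300) and 3.14 for DOT5 (Sobic.002G164700). In APR3 the leaf-removed and intact libraries overlapped at 1 h.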

How the results depend on the processing

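Of the counts of genes whose effect shifted (5820), faded (3470), grew (1290) or reversed (886), most moved by less than 1.5 times under another scaling, filter, tool or set of libraries. With the intron share of each library as a covariate, 4517 genes shifted down, 2333 effects grew and 1437 reversed. Without the 5 libraries that deviate alike, 2008 effects grew. Correlations of same-letter deviations ran between -0.405 and 0.295. The labels do not say whether a replicate letter marks a shared batch, and so few correlations cannot settle it. A replicate block within each time left 2750 calls, 1380 upward and 1370 downward, with 1949 faded, 371 grown and 246 reversed effects. It uses more of the residual degrees of freedom. At 3 h, intact replicate a and leaf-removed replicate d have no partner of the same letter, so the 3 h effect then rests on replicates b and c. A block over all times gave 4659 calls. DESeq2 made 6602 calls and the 12 libraries alone 5398. Leaving out 1 library gave 4734 to 5891 calls, 2602 to 3474 upward and 1970 to 2822 downward, with 2827 to 3637 faded, 915 to 1300 grown and 621 to 878 reversed effects. No named gene with a called shift changed sign under these alternatives, but some lost their call. Of 228 named genes, 37 lost it with the replicate block within each time, and 3 to 8 with 1 library left out. That block kept 46.0% of the main calls over all genes. List counts of 6 or fewer often moved by 1 to 3 genes when 1 library was left out. The BCV was 24.9% with 3 pools per group. The test recovered 23.9% of simulated 2-fold shifts, but few genes were changed in that simulation. That share therefore need not hold here, where 26.6% of genes were called. Called shifts included some under 2-fold: 1095 of the 1708 faded rises and 998 of the 1762 faded falls reached 2-fold.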
